A study of Mus musculus with 12 samples.

Results

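The genes described here are 10 genes of fatty acid synthesis, elongation and desaturation in mouse RAW264.7 macrophages: Acaca, Fasn, Acly, Elovl5, Elovl6, Scd1, Scd2, Fads1, Fads2 and the regulator Srebf1. They were taken by name from 34797 gene names on the array, where 15 probes carry one of these names, and all 10 were among the 17595 genes whose signal was high enough to test. All 12 samples are RAW264.7 cells, an established macrophage line, incubated for 24 h in medium with 0.5% fatty acid-free BSA, a protein carrier for fatty acids. The 4 groups of 3 arrays received 0.2 mM palmitic acid and 200 nM recombinant FABP4 together, 200 nM recombinant FABP4, 0.2 mM palmitic acid, or neither (control). Palmitic acid is a saturated fatty acid and the product of the fatty acid synthase that Fasn encodes. FABP4 (aP2), a lipid chaperone that adipocytes and macrophages make and also secrete, was here added from outside. The design crosses the 2 additions and so asks what each does with and without the other. Whether the 3 arrays of each group represent separate cultures is not stated in the labels, so p-values measure the spread of these arrays alone, and that spread may be technical.

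In the cytosol, ATP citrate lyase makes acetyl-CoA, acetyl-CoA carboxylase turns it into malonyl-CoA, and fatty acid synthase joins these units into palmitic acid. Enzymes of the endoplasmic reticulum then lengthen the chain (elongases) or place double bonds in it (desaturases). The transcription factor SREBP-1, from Srebf1, drives many of these genes, and the nuclear receptor LXR and cellular fatty acids are known to act on them through it. In macrophages the pathway is known for supplying membrane lipids and unsaturated fatty acids.

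The arrays were alike in quality: the 75th percentile of the intensity lay between 250.1 and 315.3, 42.8% to 46.7% of the 59305 non-control spots per array exceeded background clearly, and saturation was seen on 0 spots. Levels below are relative intensities, the processed intensity of a probe divided by the 75th percentile of its array. They compare arrays for 1 probe and not probes with each other. The arrays lie on 2 slides, each with its own scan. FABP4 array 1 and all 3 control arrays are on slide 1, and the other 8 are on slide 2. The palmitic acid effect without FABP4 therefore lies wholly between slides, while the FABP4 effect with palmitic acid lies within slide 2. Macrophage markers were above background on all arrays for 9 of 9 genes. Of 5 adipocyte markers, Adipoq, Plin1, Cfd and Lep were above background on none and Retn on all. As a check of the treatment, Plin2, which encodes a lipid droplet coat protein, rose with palmitic acid by 1.37 on the log2 scale with FABP4 and by 1.42 without it. Cpt1a, which carries fatty acids into mitochondrial oxidation, rose by 1.46 and 1.37 in the same 2 settings (limma, highest adjusted p = 2.42e-06).

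With palmitic acid 4 of the 10 genes fell, Acaca, Fasn, Elovl6 and Scd2, both with FABP4 and without it, and 0 rose. At the ends of the range, Elovl6 with FABP4 fell by 32% and Fasn without FABP4 fell by 40%. These 4 encode the enzyme that commits acetyl-CoA to fatty acid synthesis, the synthase itself, the elongase of 16-carbon chains and a stearoyl-CoA desaturase. The other 6 genes did not pass the test in either setting. With slide as a block in the model, Acaca, Fasn and Scd2 remained called with FABP4, where 590 of all tested genes were called. Without FABP4 Acaca alone did, where 138 of all tested genes (0.784%) were called. For FABP4, none of the 10 genes passed the test, with or without palmitic acid. Called means an adjusted p under 0.05 over all 17595 genes (limma, Benjamini-Hochberg). With FABP4 present, 3.81% of all tested genes were called for palmitic acid, 0.943% lower and 2.86% higher, against 4 of 10 of these genes lower and 0 higher. Without FABP4, 8.61% of all genes were called, 3.73% lower and 4.88% higher, against again 4 of 10 lower and 0 higher. The median log2 fold change of the 10 genes was -0.25 with FABP4 and -0.39 without, where the median of all tested genes was 0.05 and 5e-04. Without control array 2 the median of the 10 genes without FABP4 was -0.26. In RNA of a whole culture, fewer cells that carry a transcript and less of it per cell cannot be told apart.

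**Figure D1:**
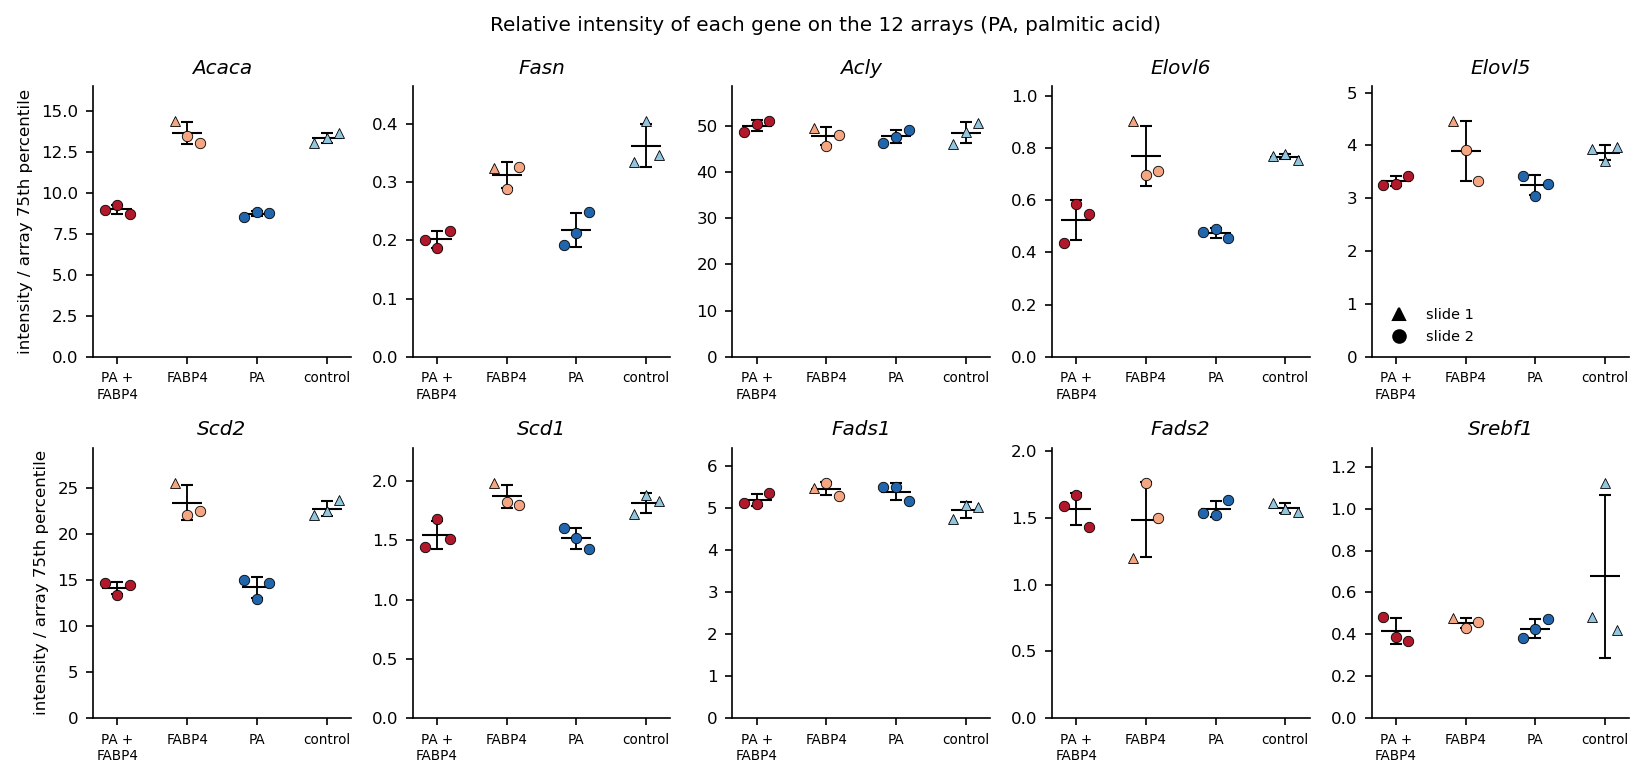
Relative intensity (processed intensity divided by the array's 75th percentile, linear axes from 0) of the tested probe of each gene on the 12 arrays, with groups from left to right palmitic acid plus FABP4, FABP4, palmitic acid (PA) and control. Points are arrays, triangles on slide 1 and circles on slide 2, and bars are the mean ± SD of 3 arrays. For Acaca, Fasn, Scd2 and Elovl6 all 6 arrays with palmitic acid lie below all 6 without it. The same holds for Scd1, which was not called, by a narrow margin (1.68 against 1.72). How many of all tested genes separate in this way was not counted.

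Acaca encodes acetyl-CoA carboxylase 1, the cytosolic enzyme that makes malonyl-CoA and the step at which fatty acid synthesis is committed. Its tested probe lies at chr11:84215093-84215152 on the plus strand (build mm9, as the files give it). It had relative intensities of 8.99, 9.28 and 8.71 on the palmitic acid plus FABP4 arrays, against 14.4, 13.5 and 13.1 on the FABP4 arrays. On the palmitic acid arrays it had 8.55, 8.84 and 8.78, against 13.1, 13.4 and 13.7 on the control arrays. Every array with palmitic acid was low and every array without it was high, and the ranges are far apart. The log2 fold change was -0.60 ± 0.05 (SE) with FABP4 (adjusted p = 0.000225, limma) and -0.62 ± 0.05 without (adjusted p = 0.000157). Its level fell by 34% with FABP4, and without FABP4 it fell by 34.8%. Of the 17595 genes, 15 had a smaller p with FABP4 and 16 without.

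Acaca is read by 4 probes, and 3 of their sequences are shown because they tell which probes measure separate stretches. The tested probe and the second brightest start 1 base apart and share 55 of 60 bases. Their last 30 bases are given 5′ to 3′, with the shared run in capitals.
Acaca A_55_P2019058: TGTTGAAATAAACCTCCACATTTGTAgaag
Acaca A_55_P2084706: GTTGAAATAAACCTCCACATTTGTAaaaaa
These 2 are therefore close to 1 measurement and not independent. Another probe, at chr11:84009021-84009080 on the plus strand, starts 206 kb upstream of them and reads another stretch of the same gene.
Acaca A_55_P2121392: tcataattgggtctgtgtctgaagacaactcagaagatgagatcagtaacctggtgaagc
The overlapping probe had a log2 fold change of -0.67 ± 0.07 with FABP4 and -0.63 ± 0.07 without. The distant probe had -0.65 ± 0.10 with FABP4 and -0.64 ± 0.10 without. The fourth probe, at chr11:84211638-84211697, was dim. It was well above background on all 3 FABP4 arrays and all 3 control arrays, on 1 palmitic acid array and on 0 palmitic acid plus FABP4 arrays. The size of its change is not given, since the signal with palmitic acid was mostly not well above background. The tested, overlapping and distant probes of Acaca were thus lower with palmitic acid in both settings. The dim probe is not counted with them, since it passed the filter on dim signals only through the groups without palmitic acid.

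**Figure D2:**
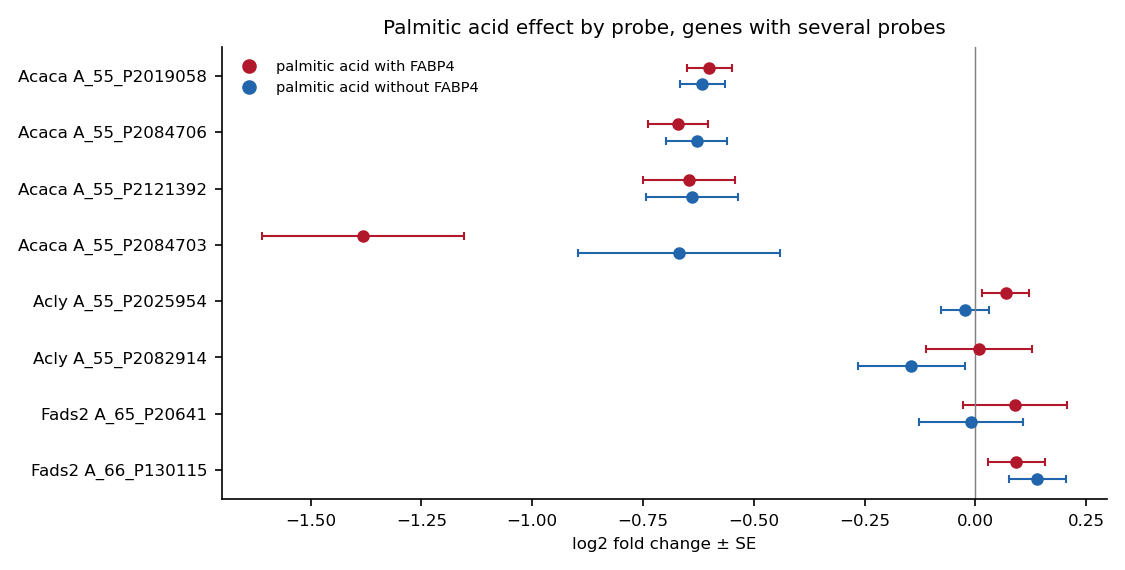
Log2 fold change ± SE with palmitic acid for each probe of the 3 genes with more than 1 probe, in the setting with FABP4 (red, above) and without (blue, below). The 3 brighter Acaca probes lie between -0.60 and -0.67, and the probes of Acly and Fads2 lie around 0. The dim Acaca probe was well above background on 0 of 3 palmitic acid plus FABP4 arrays (red) and on 1 of 3 palmitic acid arrays (blue). The sizes at its points are therefore not interpreted.

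Fasn encodes fatty acid synthase, which builds palmitic acid. It has a single probe, shown because this result rests on it alone, at chr11:120667666-120667725 on the minus strand (mm9).
Fasn A_52_P100252: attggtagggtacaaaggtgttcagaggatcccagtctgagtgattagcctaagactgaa
The relative intensity was 0.201, 0.187 and 0.217 on the palmitic acid plus FABP4 arrays, against 0.324, 0.287 and 0.326 on the FABP4 arrays. It was 0.192, 0.212 and 0.249 on the palmitic acid arrays, against 0.335, 0.404 and 0.347 on the control arrays. The groups with palmitic acid stayed below those without, although the palmitic acid array at 0.249 came closer than the others. With palmitic acid its log2 fold change was -0.63 ± 0.11 with FABP4 (adjusted p = 0.0117, limma) and -0.74 ± 0.11 without (adjusted p = 0.00467). The signal was low, between 53.5 and 93.0 intensity units as group means, yet well above background on all 12 arrays. With FABP4 the call was lost without palmitic acid plus FABP4 array 1 (adjusted p = 0.0503, limma) and without array 2 of that group (adjusted p = 0.0551). The size of the fall depended on the processing. Over all alternative settings the log2 fold change lay between -0.73 and -0.32 with FABP4 and between -0.84 and -0.38 without. Leaving out single arrays gave -0.69 to -0.58 with FABP4 and -0.84 to -0.65 without.

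Acly encodes ATP citrate lyase, which supplies the acetyl-CoA, and did not pass the test. Its relative intensity was 48.7, 50.4 and 50.9 on the palmitic acid plus FABP4 arrays, against 49.6, 45.7 and 47.9 on the FABP4 arrays. It was 46.3, 47.6 and 49.1 on the palmitic acid arrays, against 46.1, 48.7 and 50.6 on the control arrays. The groups overlap in both settings. For Acly the log2 fold change was 0.07 with FABP4 (95% interval -0.05 to 0.18) and -0.02 without (-0.14 to 0.09), and both intervals leave out falls of the size seen for Acaca. A second Acly probe, which is dimmer, had 0.01 with FABP4 and -0.14 without.

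Elovl6 encodes the elongase that lengthens palmitic acid to stearic acid, and Elovl5 encodes an elongase of polyunsaturated chains. Elovl6 is read by 1 probe at chr3:129341248-129341307 on the plus strand, shown because the elongation result rests on it.
Elovl6 A_51_P463440: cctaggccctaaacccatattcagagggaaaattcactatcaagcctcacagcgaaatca
Elovl6 had a relative intensity of 0.437, 0.587 and 0.548 on the palmitic acid plus FABP4 arrays, against 0.902, 0.696 and 0.711 on the FABP4 arrays. It had 0.479, 0.490 and 0.455 on the palmitic acid arrays, against 0.769, 0.777 and 0.755 on the control arrays. The groups do not overlap in either setting, but the 2 groups with FABP4 spread more widely than the 2 without it. For Elovl6 the log2 fold change was -0.56 ± 0.12 with FABP4 (adjusted p = 0.0317, limma) and -0.69 ± 0.12 without (adjusted p = 0.0079). With FABP4 the call was lost in 11 of 28 alternative settings, among them those without control array 3, FABP4 array 1, FABP4 array 2, palmitic acid plus FABP4 array 1 and palmitic acid plus FABP4 array 3, where the highest adjusted p was 0.0889. The direction was kept in all 28.

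Elovl5 had 3.26, 3.27 and 3.43 on the palmitic acid plus FABP4 arrays, against 4.46, 3.90 and 3.33 on the FABP4 arrays. It had 3.42, 3.05 and 3.28 on the palmitic acid arrays, against 3.93, 3.70 and 3.96 on the control arrays. Here the groups overlap with FABP4 and do not overlap without it. For Elovl5 the log2 fold change was -0.22 ± 0.09 with FABP4 (adjusted p = 0.215, limma) and -0.25 ± 0.09 without (adjusted p = 0.12), so Elovl5 did not pass.

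Scd1 and Scd2 encode stearoyl-CoA desaturases, which place the first double bond and turn palmitic and stearic acid into palmitoleic and oleic acid. Scd2 passed the test in both settings and Scd1 in neither. Each is read by 1 probe, and the 2 sequences are shown because the comparison of the paralogs rests on them. The Scd1 probe lies at chr19:44469387-44469446 on the minus strand and the Scd2 probe at chr19:44381024-44381083 on the plus strand (mm9).
Scd2 A_51_P129464: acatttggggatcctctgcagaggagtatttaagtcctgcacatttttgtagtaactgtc
Scd1 A_52_P682382: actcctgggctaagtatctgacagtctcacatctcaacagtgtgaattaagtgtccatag
Scd2 had a relative intensity of 14.7, 13.4 and 14.5 on the palmitic acid plus FABP4 arrays, against 25.6, 22.1 and 22.5 on the FABP4 arrays. It had 15.0, 12.9 and 14.7 on the palmitic acid arrays, against 22.1, 22.5 and 23.7 on the control arrays. The highest array with palmitic acid was well below the lowest array without it. For Scd2 the log2 fold change was -0.72 ± 0.08 with FABP4 (adjusted p = 0.000882, limma) and -0.68 ± 0.08 without (adjusted p = 0.00124).

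Scd1 had 1.45, 1.68 and 1.51 on the palmitic acid plus FABP4 arrays, against 1.98, 1.82 and 1.80 on the FABP4 arrays. It had 1.61, 1.52 and 1.42 on the palmitic acid arrays, against 1.72, 1.88 and 1.83 on the control arrays. The groups do not overlap in either setting, yet the differences were small. For Scd1 the log2 fold change was -0.27 ± 0.07 with FABP4 (adjusted p = 0.066, limma) and -0.26 ± 0.07 without (adjusted p = 0.0521). Groups that do not overlap were common here. With FABP4, 6.96% of all tested genes were lower with palmitic acid without overlap, against 5 of these 10 genes (the 4 called and Scd1), and 19.3% were higher, against 0 of 10. Without FABP4, 16.4% were, against 6 of 10 (those 5 and Elovl5), and 17.4% were higher without overlap, against Fads1 alone.

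In 2 of 3 pairs of related enzymes, the mean ratio of the first gene over the second was lower on the arrays with palmitic acid. The log2 ratio of Scd2 over Scd1 on an array lay between 3.00 and 3.34 with palmitic acid plus FABP4, against 3.60 to 3.69 with FABP4, and between 3.09 and 3.37 with palmitic acid, against 3.58 to 3.69 in the control. Averaged over both settings it was lower with palmitic acid, with a difference of -0.43 (exact permutation test of the palmitic acid labels within each FABP4 setting, two-sided, 6 arrays with and 6 without, p = 0.005, the smallest that the 400 labelings allow). The ratio of Elovl6 over Elovl5 differed by -0.39 (exact permutation p = 0.01) and that of Fads2 over Fads1 by 0.01 (exact permutation p = 0.9). This last mean joins 0.16 with FABP4 and -0.13 without, so it does not show that Fads1 and Fads2 changed equally. After Benjamini-Hochberg adjustment over these 3 pairs the values were 0.015, 0.015 and 0.9. The pairs were set up with the results of the single genes known, so these p-values are no fresh test of them. Without FABP4 the palmitic acid and control arrays share no slide, so there the permuted labels and the slide cannot be told apart. On slide 2 alone, with FABP4, the same differences were -0.42, -0.32 and 0.01.

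Fads1 and Fads2 encode the delta-5 and delta-6 desaturases, which make long polyunsaturated fatty acids and lie next to each other on chromosome 19. Neither passed the test. Fads1 had 5.13, 5.11 and 5.36 on the palmitic acid plus FABP4 arrays, against 5.49, 5.61 and 5.30 on the FABP4 arrays. It had 5.51, 5.51 and 5.17 on the palmitic acid arrays, against 4.75, 5.09 and 5.04 on the control arrays. The control arrays were the lowest group, and the other 3 groups overlap with each other. The log2 fold change with palmitic acid was -0.07 ± 0.05 with FABP4 (adjusted p = 0.421, limma) and 0.12 ± 0.05 without (adjusted p = 0.148). Fads2 had 1.59, 1.67 and 1.43 on the palmitic acid plus FABP4 arrays, against 1.20, 1.76 and 1.496 on the FABP4 arrays. It had 1.54, 1.52 and 1.63 on the palmitic acid arrays, against 1.61, 1.56 and 1.54 on the control arrays. The groups overlap, and the FABP4 arrays alone span the range of all 12. For Fads2 the log2 fold change was 0.09 ± 0.12 with FABP4 and -0.01 ± 0.12 without (adjusted p = 0.697 and 0.968, limma), and a second Fads2 probe had 0.09 ± 0.06 and 0.14 ± 0.06.

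Srebf1 encodes SREBP-1, the transcription factor that drives lipogenic genes, and its own transcript did not pass the test. It had 0.485, 0.388 and 0.370 on the palmitic acid plus FABP4 arrays, against 0.479, 0.431 and 0.459 on the FABP4 arrays. It had 0.382, 0.428 and 0.474 on the palmitic acid arrays, against 0.484, 1.12 and 0.424 on the control arrays. Control array 2 stands apart from the other 11, and the groups overlap. For Srebf1 the log2 fold change was -0.15 (95% interval -0.81 to 0.51, adjusted p = 0.81, limma) with FABP4 and -0.52 (-1.18 to 0.13, adjusted p = 0.29) without, and without control array 2 the value without FABP4 was -0.09. These intervals are too wide to tell a fall like that of Fasn from none, and the shared spread behind them includes control array 2. On the arrays of slide 2 only, which hold no control array, the log2 fold change with FABP4 was -0.11 ± 0.13. The files place the probe at chr11:60012664-60012723 on the minus strand, and it is shown with the letters TTTATT, the reverse complement of the polyadenylation signal AATAAA, in capitals.
Srebf1 A_55_P2002557: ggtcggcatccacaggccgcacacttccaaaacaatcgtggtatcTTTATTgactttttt
The tested probes of Acaca and Acly hold AATAAA itself, and no other tested probe of the 10 genes holds either. Which strand the Srebf1 probe reads was not tested, and its values are given under the name that the array design assigns. 

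For the FABP4 effect, no gene of the 10 passed the test. With palmitic acid present, 0 of 10 were called and the groups overlap for all 10, while 14.5% of all tested genes had groups that do not overlap. Over all genes 0% were called by limma in that comparison (0 genes, with 1034 or 5.88% at an unadjusted p under 0.05). The log2 fold changes lay between -0.11 (Fasn) and 0.13 (Elovl6). For the 4 genes that fell with palmitic acid, the 95% intervals of this FABP4 effect were -0.07 to 0.15 for Acaca, -0.34 to 0.13 for Fasn, -0.17 to 0.17 for Scd2 and -0.13 to 0.39 for Elovl6. All 6 arrays of this comparison share slide 2. There palmitic acid arrays 1 and 2 lie in array row 1. Palmitic acid array 3 and all 3 palmitic acid plus FABP4 arrays lie in row 2. The array row and FABP4 are thus partly joined.

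Without palmitic acid, 0 of 10 were called with FABP4, where 0.0171% of all genes (3 genes) were. Fads1 was higher with FABP4 on all 3 arrays than on any control array, by 0.14 ± 0.05 on the log2 scale (limma, adjusted p = 0.597). Fasn was lower with FABP4 on all 3 arrays than on any control array, at -0.21 ± 0.11 (adjusted p = 0.739, limma). Over all genes, 4.01% were higher and 6.41% lower without overlap in this comparison. The palmitic acid effect did not differ by a called amount between the settings with and without FABP4 for any of the 10 genes (0 called, as for all genes, of which 1218 or 6.92% had an unadjusted p under 0.05). The difference, with FABP4 minus without, was 0.02 for Acaca (95% interval -0.14 to 0.17), 0.10 for Fasn (-0.23 to 0.44), -0.04 for Scd2 (-0.28 to 0.20) and 0.14 for Elovl6 (-0.23 to 0.51). The intervals for Fasn and Elovl6 are wide, and a p that misses the threshold does not show equal effects. The control arrays in these comparisons are all on slide 1. With slide as a block, the FABP4 effect without palmitic acid rests on FABP4 array 1 alone. It was then 0.23 for Elovl6 (from -0.005), 0.17 for Scd2 and -0.39 for Fads2. The difference between the palmitic acid effects was then -0.06 for Acaca, 0.05 for Fasn, -0.17 for Scd2, -0.10 for Elovl6 and 0.39 for Fads2. Its sign thus turned for Acaca, Elovl6 and also Elovl5 (0.03 over all arrays and -0.17 with the block).

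**Figure D3:**
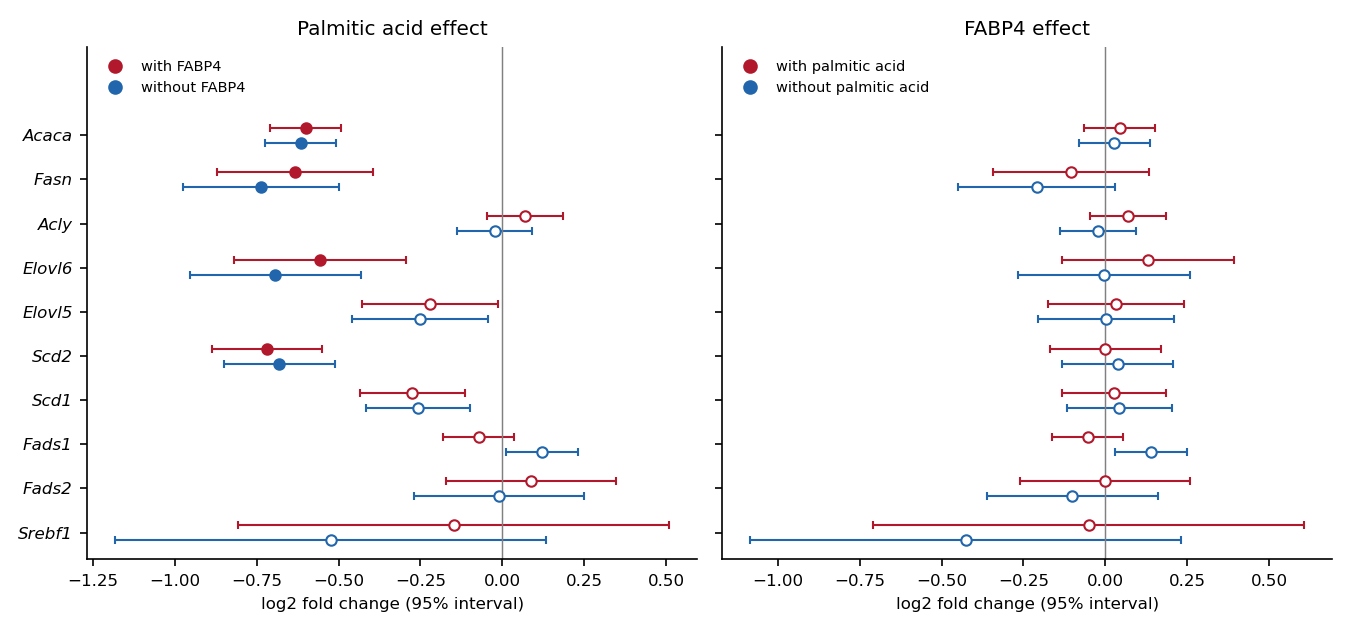
Log2 fold change with its 95% interval for each gene, on the left for palmitic acid with FABP4 (red) and without (blue), on the right for FABP4 with palmitic acid (red) and without (blue). Filled points passed an adjusted p of 0.05; they are Acaca, Fasn, Elovl6 and Scd2 on the left, in both settings, and none on the right.

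The FABP4 group has arrays on both slides, 2 on slide 2 and array 1 alone on slide 1. There the slide and array 1 itself cannot be told apart. The log2 difference of slide 2 from slide 1 was -0.36 for Elovl6, -0.31 for Elovl5, -0.20 for Scd2 and 0.44 for Fads2. For the other genes it lay between -0.13 (Scd1) and -0.01 (Fads1). These differences are given as sizes only, since 1 array stands for slide 1 and its own spread is not known. With slide as a block, the palmitic acid effect with FABP4 was -0.56 ± 0.05 for Acaca (adjusted p = 0.000749, limma), -0.60 ± 0.12 for Fasn (0.0341), -0.65 ± 0.07 for Scd2 (0.00248) and -0.44 ± 0.11 for Elovl6 (0.0608). On slide 2 both FABP4 arrays lie in array row 1 and all 3 palmitic acid plus FABP4 arrays in row 2, so there the array row and palmitic acid cannot be told apart. On slide 2 alone, Acaca and Scd2 remained called (adjusted p = 0.00688 and 0.015), while Fasn and Elovl6 had the same fold changes with adjusted p of 0.0647 and 0.133.

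Without FABP4, where palmitic acid and control arrays share no slide, the block takes the difference between slides from the FABP4 arrays alone. Acaca was then still called, at -0.50 ± 0.08 (adjusted p = 0.0238, limma). Fasn had -0.65 ± 0.20 (0.166), Scd2 -0.48 ± 0.12 (0.106) and Elovl6 -0.34 ± 0.17 (0.406). Elovl5 turned sign, to 0.05 ± 0.12, and Fads2 moved to -0.45 ± 0.14, neither called. With slide as a random block, Acaca and Scd2 kept their calls without FABP4. Fasn (-0.70, adjusted p = 0.0565, limma) and Elovl6 (-0.54, adjusted p = 0.124) lost theirs.

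**Figure D4:**
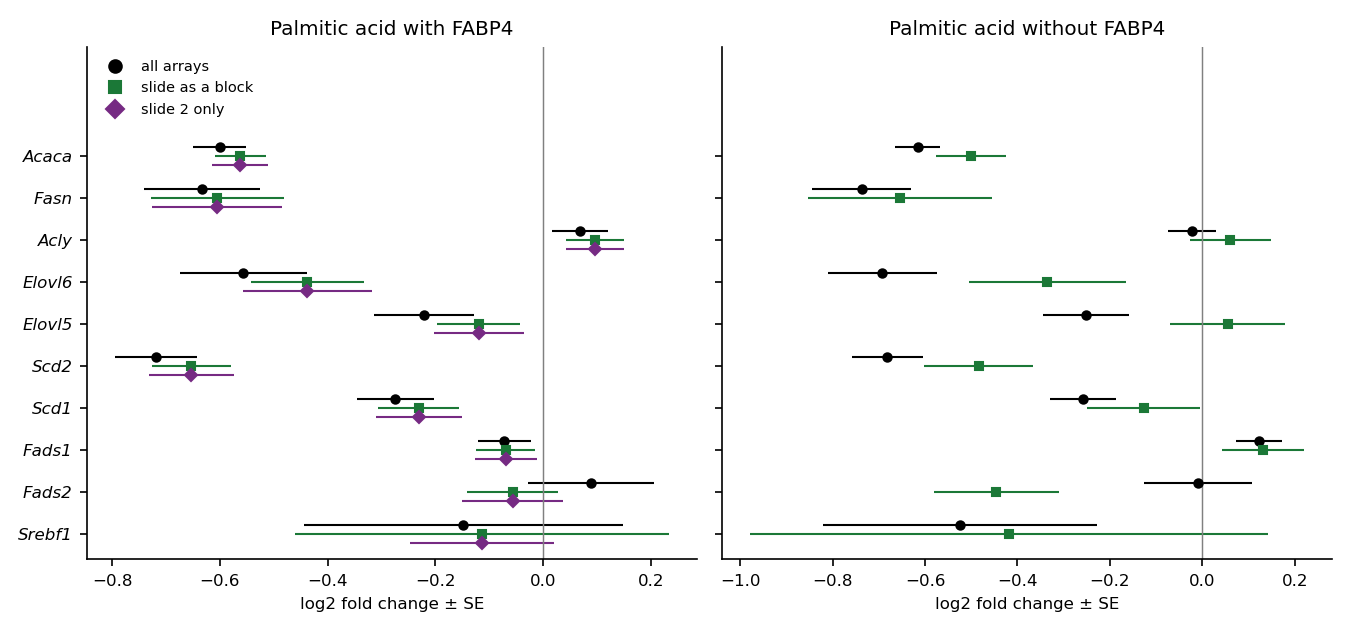
Log2 fold change ± SE with palmitic acid, with FABP4 on the left and without on the right, from all arrays (circles), with slide as a block (squares) and from the arrays of slide 2 only (diamonds, which exist only on the left). Acaca stays near -0.5 to -0.6 throughout, while Elovl6 without FABP4 is -0.69 over all arrays and -0.34 with the block.

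The other genes around the pathway were taken from 6 lists by role, of which 44 of 53 listed genes were tested. Of the genes that supply carbon and reducing power, 0 of 8 rose and 1 fell with FABP4, Mlycd, which encodes malonyl-CoA decarboxylase (-0.27, adjusted p = 0.0465, limma). Without FABP4, 2 fell. Acss2, a cytosolic acetyl-CoA synthetase, had -0.36 on its tested probe and 0.22 on another, so its probes disagree. Mid1ip1, a partner of acetyl-CoA carboxylase, had -0.31 (adjusted p = 0.00539, limma). Of the other genes of the elongation cycle, 0 of 7 were called with FABP4, and 1 fell without it, Hacd4 (Ptplad2 on the array), a dehydratase, at -0.40 (adjusted p = 0.0261, limma). With FABP4 its tested probe had 0.12, but a second Hacd4 probe had -0.38 with FABP4 and -0.45 without. Of the other desaturation genes, 0 of 6 were called in either setting, and of the mitochondrial fatty acid synthesis genes 0 of 5.

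Among the regulators, 1 of 11 rose with FABP4 and none fell, and without FABP4 1 rose and 1 fell. The gene that rose was Srebf2, which encodes SREBP-2, the sterol-responsive relative of SREBP-1. It had 0.38 ± 0.07 with FABP4 (adjusted p = 0.0129, limma) and 0.48 ± 0.07 without (0.00356), but a second Srebf2 probe had 0.13 and 0.03. The gene that fell was Nr1h3, which encodes LXR-alpha, at -0.24 (adjusted p = 0.0451, limma), with -0.09 on a second probe. Of the SREBP-2 targets, 1 of 7 rose with FABP4, and without it 1 rose and 1 fell. Stard4, a sterol carrier, had 0.25 and 0.24 on its tested probe, but -0.11 and -0.42 on another. Idi1, of isoprenoid synthesis, had -0.38 without FABP4 (adjusted p = 0.0304, limma). With slide as a block, Srebf2 and Stard4 remained called with FABP4 (adjusted p = 0.0322 and 0.0473, limma). Insig1, which encodes a protein that holds SREBP in the endoplasmic reticulum, was then called too, at 0.39 (adjusted p = 0.0183, limma), against 0.25 (adjusted p = 0.242) over all arrays. Mlycd lost its call at -0.30. Without FABP4 no gene of these lists was called with the block. There the log2 fold change was 0.47 for Srebf2, 0.25 for Stard4, -0.34 for Hacd4 and -0.25 for Mid1ip1, values near those over all arrays. It was smaller for Acss2 (-0.17), Nr1h3 (-0.12) and Idi1 (-0.09). Leaving out each of the 12 arrays in turn kept the call in 1 case for Mlycd and 2 for Nr1h3, in 7 for Idi1, and in 8 for Hacd4 and for Stard4 in either setting. It was kept in 10 for Srebf2 with FABP4 and in all 12 for Srebf2 without FABP4, Acss2 and Mid1ip1. For FABP4, 0 genes of these lists were called in either setting.

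**Figure D5:**
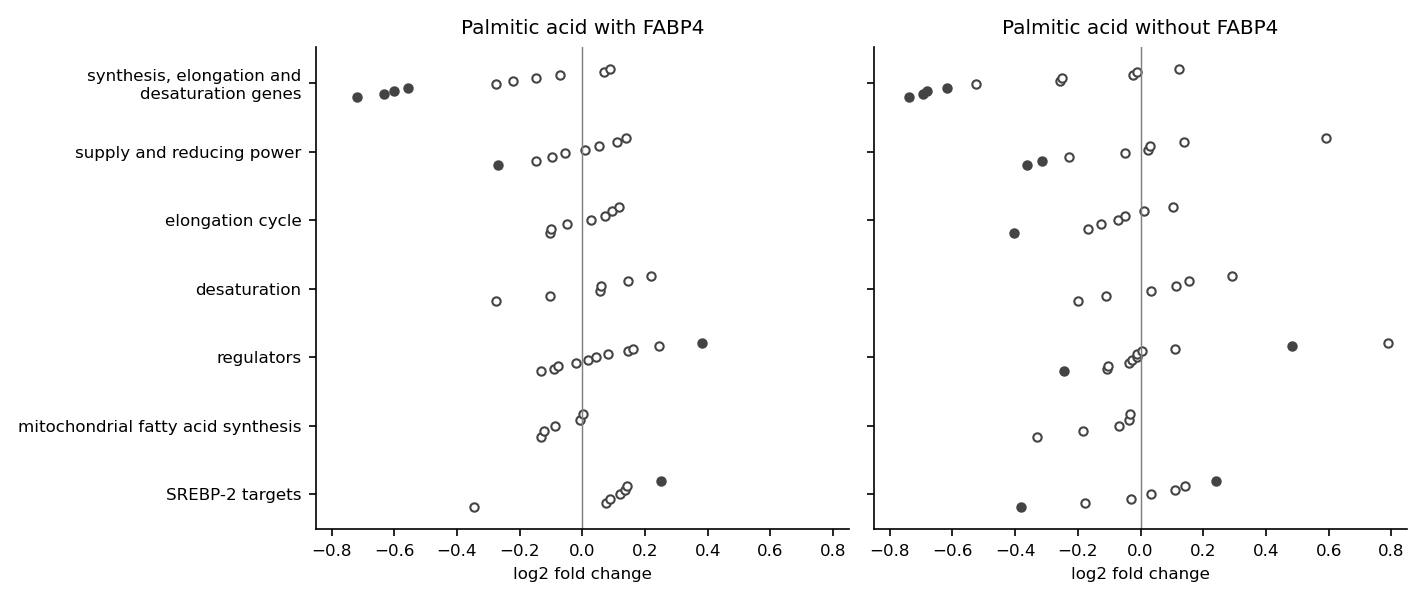
Log2 fold change with palmitic acid for every tested gene of the pathway and of the 6 lists around it, with FABP4 on the left and without on the right, 1 point per gene; filled points passed an adjusted p of 0.05 and the height within a list only spreads the points. The filled points below -0.5 all belong to the synthesis, elongation and desaturation genes.

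The 3 genes whose pattern over the 12 arrays lay closest to that of Fasn were Mboat1, which encodes a lysophospholipid acyltransferase, Ptger2, a prostaglandin E2 receptor, and Abcg1, a cholesterol exporter. Likeness was the root mean square difference over the arrays of log2 levels set relative to the control mean, at 0.141, 0.149 and 0.154, where the median over all tested genes was 0.604. Among the 10 genes, Scd2 was closest to Fasn at 0.194, then Acaca at 0.225 and Elovl6 at 0.244. Abcg1 had a log2 fold change with palmitic acid of -0.81 with FABP4 and -0.87 without.

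Osteoclast markers, which RAW264.7 cells can express, moved with palmitic acid too. Of 5 listed, 4 were above background on all arrays and Calcr on none, and Ctsk, Dcstamp and Ocstamp (the last 2 under older names on the array) rose in both settings. Their summed relative intensity was 27.9 to 29.7 with palmitic acid plus FABP4, against 20.5 to 20.8 with FABP4, and 26.6 to 28.4 with palmitic acid, against 19.5 to 20.3 in the control. With slide as a block, all 3 remained called with FABP4. Without FABP4 Dcstamp alone did (adjusted p = 0.0355, limma), while Ocstamp had 0.18, against 0.48 over all arrays, and Ctsk had 0.48 with an adjusted p of 0.106. Leaving out each of the 12 arrays kept the call of Ctsk in 6 cases with FABP4 and in 7 without, and that of Ocstamp in 10 and 12.

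Some adipocyte and macrophage markers differed with palmitic acid as well. Retn, the 1 detected adipocyte marker, had -0.29 with FABP4 (adjusted p = 0.149, limma) and fell by 0.52 on the log2 scale without (adjusted p = 0.0134). The summed adipocyte list lay between 0.819 and 0.972 with palmitic acid plus FABP4, against 1.01 to 1.05 with FABP4, and between 0.791 and 0.893 with palmitic acid, against 1.05 to 1.21 in the control. This sum includes the 4 listed genes that were above background on no array. Of the 9 macrophage markers, Cd68, a lysosomal glycoprotein, rose by 0.35 with FABP4 (adjusted p = 0.00906, limma) and by 0.26 without (0.0196). Csf1r, the receptor for macrophage colony-stimulating factor, rose with FABP4 by 0.26 (adjusted p = 0.0208, limma), and Itgam, an integrin subunit, fell by 0.34 without it (0.0104). With slide as a block, Cd68 and Csf1r remained called with FABP4 (adjusted p = 0.0212 and 0.0254, limma). Without FABP4 the calls of Retn, Cd68 and Itgam were lost with the block. There Retn had -0.50, Cd68 0.27 and Itgam -0.15. The summed macrophage list lay between 1310 and 1360 with palmitic acid plus FABP4, against 1220 to 1320 with FABP4, and between 1300 and 1340 with palmitic acid, against 1260 to 1300 in the control. Of the fibroblast, neutrophil and dendritic cell markers 0 were called in either setting. The part of these markers and of the osteoclast markers in the falls of the lipogenic genes was not tested.

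For 7 of the 10 genes RefSeq gives promoter windows (GRCm38.p6, 250 bases before to 50 after a start site, 9 windows in all). Scd1, Scd2 and Fads1 have none. The windows were searched on both strands for 5 motifs. The sterol regulatory element (ATCAC and CCAC with any 1 base between them) was in 0 of the 9 windows and in 0.23% of all 32851 windows, and the LXR element (AGGTCA and AGGTCA with any 4 bases between them) in 0 and in 0.02%. The CCAAT box (CCAAT) was in windows of 4 genes, Fasn, Acly, Elovl5 and Srebf1, and in 37.4% of all windows. The GC box (GGGCGG) was in windows of 3 genes, Acly, Fads2 and Srebf1, and in 35.7%. The E-box CACGTG was in that of Elovl5, and in 7.15%. The windows of Acaca and Elovl6 held none of the 5. The Fasn window, chr11:120824498-120824797 on the minus strand, is shown because it holds 3 CCAAT matches, in capitals on either strand, with their first bases at -90, -62 and -59 from the start site, of which the last 2 overlap.
Fasn promoter: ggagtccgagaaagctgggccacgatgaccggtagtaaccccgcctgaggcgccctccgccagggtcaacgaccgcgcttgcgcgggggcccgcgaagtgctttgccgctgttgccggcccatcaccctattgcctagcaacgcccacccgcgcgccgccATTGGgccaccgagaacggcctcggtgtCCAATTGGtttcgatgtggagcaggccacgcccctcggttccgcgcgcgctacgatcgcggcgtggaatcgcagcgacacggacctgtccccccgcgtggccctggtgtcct
The matches are letters in a window and not binding sites, and a window with none of these letters says nothing about the factors.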

How the data were processed

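Cy3-labelled cRNA from 50 ng of total RNA was hybridised to 1-colour Agilent mouse arrays, per the labels' protocols, 1 array per sample. Per the file headers, the authors quantified spots with Agilent Feature Extraction 10.7.3.1, and the deposited processed intensity is background-subtracted, on a linear scale and not normalized between arrays. In the series value table that the authors deposited, the 62973 spots matched this intensity within 0.005, with column medians from 12.97 to 18.4; it is linear and not centred. Further steps are not given in the sources used here.

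Control and outlier spots were left out and spots of a probe averaged, giving 55681 probes. On each array, log2(processed intensity) was set relative to the 75th percentile of all non-control spots. To be tested, a probe had to be well above background on every array of some group (23909 probes), each gene being represented by its brightest one. No replicate arrays were identical (root mean square difference 0.222 to 0.369 log2). With 3 arrays per group, their number limits the precision. One fit of 4 group means to all arrays was made with limma 3.58.1 in R 4.3.3 (data.table package, 1.17.8). Tests were two-sided, genes were called under 0.05 after Benjamini-Hochberg adjustment over all 17595 genes, and the code was tested on simulated data. Figures used matplotlib 3.10.9 in Python 3.11.15.

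The 10 genes and the lists around them were chosen with earlier results of these data known. All 10 genes are given for palmitic acid in both settings, with every probe, though without a fold change for the dim Acaca probe. For FABP4 and the interaction, values are given for some of the 10 and for their tested probes only. Of the lists, the called genes are named, at most 4 per list. Also named are Plin2, Cpt1a, the 3 genes most like Fasn and Insig1 (chosen after its values were seen). The called markers of macrophages, adipocytes, fibroblasts, neutrophils, dendritic cells and osteoclasts are named too. Fibroblast, neutrophil and dendritic cell lists had 1, 2 and 3 of 5 genes above background on all arrays. Groups came from the labels. Alternatives were other scalings, normexp (offset 50), the value table, other filters and probe rules, slide as a fixed or random block, slide 2 only, trended and robust moderation, only the groups compared, a replicate block, and leaving out each array; 2 within-slide fits were added after seeing the data. Probe positions are in mm9 and promoters in GRCm38.p6; the exon or UTR that each probe matches was not analysed here.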

Additional observations from a re-analysis of the deposited data

Results flagged for a closer look

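For Fads1, which encodes the delta-5 desaturase, the palmitic acid effects had opposite signs in the 2 settings, and neither passed (-0.07 with FABP4, adjusted p = 0.421, and 0.12 without, adjusted p = 0.148, limma). Every palmitic acid plus FABP4 array lay below the mean of the FABP4 arrays, and every palmitic acid array lay above the mean of the control arrays. The difference between the 2 palmitic acid effects, with FABP4 minus without, was -0.19 ± 0.07 on the log2 scale (95% interval -0.35 to -0.04). Its adjusted p over all genes was 0.681 (limma interaction term), so it did not pass. The same number is the difference between the FABP4 effects with and without palmitic acid (-0.19), since both rest on the same 4 group means. Over all tested genes 6.92% had an unadjusted p under 0.05 for this difference.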

How the results depend on the processing

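Of 28 alternative settings and 2 more chosen after seeing the data, none turned the direction of a called gene. With palmitic acid and FABP4, the count of called genes (4 of 10) was 2 with no filter on dim probes and 2 on slide 2 alone, and leaving out each array gave 2 to 4. It was 2 without palmitic acid plus FABP4 array 1. Without FABP4 it was 1 with slide as a fixed block and 2 with slide as a random block (correlation within slides 0.35). The causes were not tested. Over the alternatives, the share of all tested genes called for palmitic acid ranged from 0.532% to 6.48% with FABP4. Without FABP4 this share ranged from 0.784% to 17.4%. Acaca was called under every alternative that could be run in both settings. Scd1 passed in 4 of 28 alternatives with FABP4 and 5 of 27 without, and Elovl5 in 0 and 2. In no alternative did FABP4 or the interaction call 1 of the 10. Same-numbered replicates did not deviate together (correlations -0.08 to 0.17), so the numbers were not taken to pair arrays. With a replicate block 3 of 10 were called with FABP4, Elovl6 losing its call (adjusted p = 0.0719, limma). Over all genes the counts ranged from 94 (only the groups compared) to 1139 (trended and robust moderation) for palmitic acid with FABP4, and from 138 (slide as a fixed block) to 3055 (no scaling) without, from 0 to 2 and 0 to 103 for FABP4 with and without palmitic acid, and from 0 to 37 for the interaction. With no scaling between arrays the median of all genes was 0.17 for palmitic acid without FABP4, 0.13 for FABP4 without palmitic acid and -0.23 for the interaction.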
